A study of Mus musculus with 66 samples.

Results

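Histone transcripts of mouse skeletal muscle were described over all 76 histone genes listed in the 3′-seq tables and set against brain and liver of the same tables. Tissue RNA came from male C57BL/6 mice aged 8 weeks, with no treatment or allele named, and skeletal muscle, brain and liver had 2 libraries each, called replicates 1 and 2 after their tables. C2C12 cells, a mouse myoblast line, were used as a cultured muscle reference, with 1 library made 48 h after the change to differentiation medium. These 7 libraries were chosen by tissue and not by any measured value, out of 10 libraries of 3′-seq and 66 samples in the series. The labels name neither the muscle that was dissected nor the animal behind a library, so p-values measure only the spread between these samples, which may be technical. Of the 76 genes, 25 had at least 1 read in the 6 tissue libraries and 51 had none. A muscle library had a read for 22 genes, and both muscle libraries had reads for 16.

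Histones package DNA. H2A, H2B, H3 and H4 form the nucleosome core, and H1 binds the linker DNA between nucleosomes. Most histone genes are replication-dependent: they are active in S phase, and their mRNA ends in a conserved stem-loop instead of a poly(A) tail. Replacement variants such as H3.3, which is encoded by H3f3a and H3f3b, are made throughout the cell cycle from polyadenylated mRNA and supply chromatin of non-dividing cells such as muscle fibres and neurons. A number of replication-dependent genes also have a polyadenylated form that is known from differentiated cells. The H3mm genes are H3-like genes named by the study, most of them close copies of H3f3a.

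The 3′-seq assay is primed on poly(A) and gives reads from the 3′ ends of transcripts. Values are in RPM, the reads of a gene divided by all reads with a single place in the genome and scaled to a common total. Each RPM value was a whole multiple of what 1 read is worth in its library, which gave the uniquely mapped reads (14060394 and 7689562 in muscle, 4438920 to 6317149 in brain and liver, and 3952088 in differentiated C2C12) and the reads behind every value. A count of 0 allows up to 3 reads, or 0.213 RPM in muscle replicate 1, 0.390 RPM in muscle replicate 2, 0.475 to 0.676 RPM in brain and liver, and 0.759 RPM in differentiated C2C12. Intervals below are exact Poisson or binomial 95% intervals, and they and this limit cover counting error only. The tables list histone genes alone, so muscle, neuron and hepatocyte markers could not be read from them, and in bulk tissue fewer cells of a type and less RNA per cell cannot be told apart. For C2C12, all 12 myotube markers had a higher FPKM in differentiated than in growing untagged cells in a separate mRNA-Seq pair with 1 library each (creatine kinase Ckm, 401 against 0.129 FPKM). The 3 listed germ cell histones, Hist1h1t, Hist1h2ba and H3t, had 0 reads in all 6 tissue libraries and in differentiated C2C12. In the 2 testis libraries they had only 2 and 1, 0 and 0, and 2 and 3 reads, so these zeros say little.

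The 3′ ends of a few genes are shown because they carry the known signals for ending histone mRNA without or with a poly(A) tail, the latter being the form that this assay primes on, and because the genes had muscle reads. The first set gives the stem-loop that follows the coding sequence, read from the mm9 genome with the GENCODE M1 annotation, 5′ to 3′ on the gene's strand, with the 16 bases that match the histone stem-loop consensus in capitals.
Hist1h1c, linker histone H1.2, chr13:23831376-23831401, plus strand: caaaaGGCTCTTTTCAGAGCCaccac
Hist1h2bc, an H2B gene, chr13:23776511-23776536, plus strand: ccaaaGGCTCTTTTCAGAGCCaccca
Hist1h2ac, an H2A gene, chr13:23775341-23775366, minus strand: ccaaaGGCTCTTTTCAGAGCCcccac
Hist1h4h, an H4 gene, chr13:23623322-23623347, plus strand: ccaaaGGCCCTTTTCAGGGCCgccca
The second set gives the last AATAAA, the hexamer of the poly(A) signal, for 3 of the 5 replication-dependent genes with muscle reads in which it lies within the last 50 bases of the annotated 3′-UTR.
Hist1h1c, chr13:23832199-23832228, plus strand: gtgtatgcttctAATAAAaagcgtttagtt
Hist1h2bc, chr13:23784319-23784348, plus strand: tgatgtatatatAATAAAtgtcatgtaaag
Hist2h2be, an H2B gene, chr3:96027628-96027657, plus strand: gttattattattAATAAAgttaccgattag
Hist1h1c thus carried both signals in 1 annotated 3′-UTR of 882 bases, with the stem-loop starting 28 bases after the last coding base. Hist1h2bc (chr13:23776068-23784357) was annotated with 2 exons: its stem-loop lay inside the intron of 7554 bases and its AATAAA in the second exon. On the coding strand, a stem-loop match within 100 bases after the coding sequence was found in 65 of 22380 annotated protein-coding genes (0.290%), and AATAAA within the last 50 bases of the 3′-UTR in 12239 of 21952 (55.8%). A match is a description of the sequence and was not tested as a site.

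Among the 56 replication-dependent genes with an annotated 3′-UTR, the 12 with a muscle read had 3′-UTRs with a median of 1167.5 bases (77 to 3100), and 10 of them were longer than 300 bases. The 44 without a muscle read had a median of 89 bases (4 to 1837), and 5 were longer than 300 bases. A stem-loop match was found in 10 of the 12 and in all 44. AATAAA lay in the last 50 bases in 5 of the 12 and in 5 of the 44. The same division was seen in the other tissues: the genes with a read numbered 11 in brain (median 1215 bases) and 8 in liver (median 1167.5 bases), while those without had medians of 86 and 92 bases. Because the 3′-UTR is also the window in which reads were counted, a longer 3′-UTR offers more places to count, and the part of this in the difference was not tested.

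**Figure D1:**
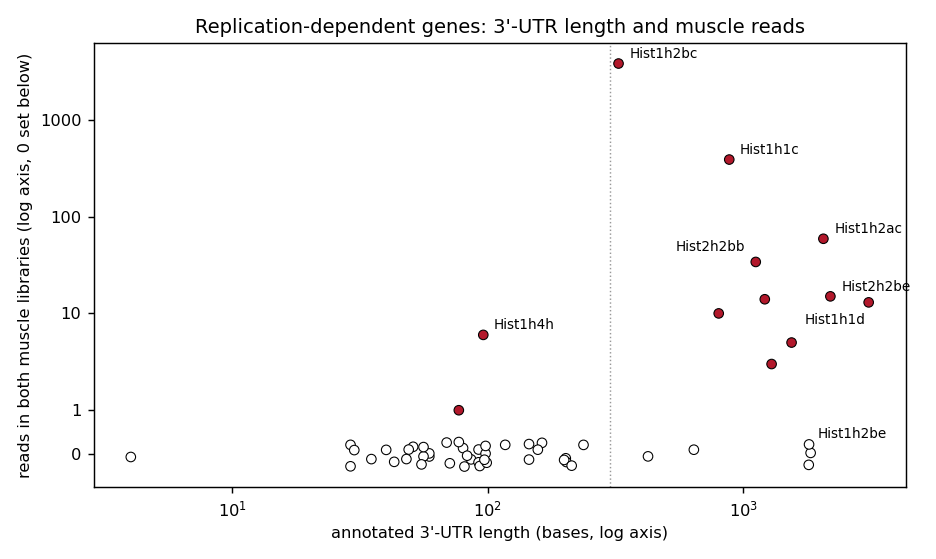
Each point is 1 of 56 replication-dependent histone genes. The horizontal log axis gives the annotated 3′-UTR length in bases, with a dotted line at 300, and the vertical log axis gives the reads in both muscle libraries together, with genes at 0 spread slightly for display. The 12 genes with a read (filled) lie at 77 to 3100 bases, 10 of them beyond the line, and 39 of the 44 without a read (open) lie to its left.

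The linker histone gene Hist1h1c (chr13:23830676-23832235) had the largest log2 difference of muscle from brain and from liver among the 8 genes that could be tested. Its RPM was 20.6 and 12.7 in muscle, 2.73 and 0.688 in brain, and 6.31 and 2.06 in liver, from 290 and 98, 16 and 4, and 28 and 13 reads. Both muscle libraries lay above the other 4. The gene is known to have a polyadenylated form in differentiated cells. Between the libraries of replicate 1, muscle was 7.55 times brain (interval 4.57 to 13.4) and 3.27 times liver (2.22 to 5.01). Between those of replicate 2 it was 18.5 times brain (7.01 to 69.3) and 6.19 times liver (3.46 to 12.04). All 4 intervals lay above 1, but they do not contain the spread between replicates.

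Hist1h1c did not pass a test that includes a spread between replicates. This spread was pooled over the 8 genes tested, and without limma's trend each had the same SE of 1.02 against the mean of brain and liver. The p-values thus do not rest on the replicates of Hist1h1c alone. The test was limma's moderated test on log2(RPM + 0.1) over the 6 libraries, for the 8 of 76 genes with a mean of at least 1 RPM, with Benjamini-Hochberg adjustment, and a fold change on this scale understates that of low genes. Against the mean of brain and liver Hist1h1c was higher by 2.79 (SE 1.03, adjusted p = 0.0960), against brain by 3.45 (SE 1.19, adjusted p = 0.0616) and against liver by 2.13 (SE 1.19, adjusted p = 0.677). None of the 8 genes had a limma adjusted p below 0.05 against the mean, brain or liver (0.0% of those tested in each). At an unadjusted p below 0.05 the counts were 1, 2 and 0, and no other tool was run. With the 2 testis libraries in the fit, which then share the estimate of the spread, Hist1h1c was called against the mean (limma adjusted p = 0.0399) and against brain (0.0230), which is 12.5% of the 8 genes in each. The second gene at an unadjusted p below 0.05 against brain was H3f3a, with a difference of -2.39 (SE 1.13, limma adjusted p = 0.178).

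**Figure D2:**
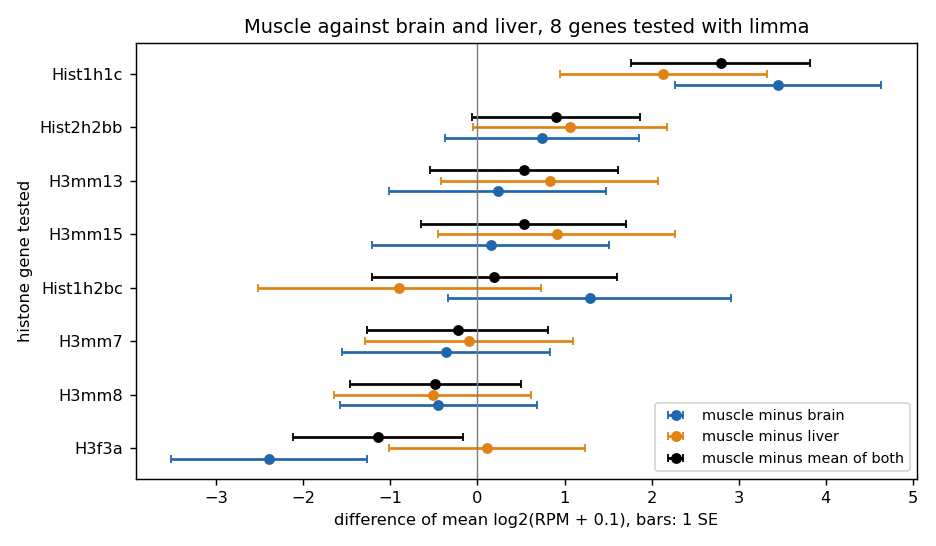
Differences of mean log2(RPM + 0.1) between 2 muscle libraries and 2 brain libraries (blue), 2 liver libraries (orange) or the mean of both tissues (black) for the 8 genes tested, with bars of 1 SE from limma. Hist1h1c lies farthest to the right, at 2.13 to 3.45, and no gene passed an adjusted p of 0.05.

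The muscle libraries differed widely from each other. Summed over 76 genes, histone RPM was 130.4 and 485 in muscle, 102 and 158 in brain, 667 and 173 in liver, with 381 in differentiated C2C12. The muscle values lay inside the range of the other 4. The means were 308 RPM in muscle and 275 RPM in brain and liver, and the exact two-sided permutation test gave p = 0.933 (15 arrangements, so that the smallest p possible is 0.0667). The difference of 32.7 RPM turned to -144.6 RPM without muscle replicate 2, to -25.1 without brain replicate 1, to -6.24 without brain replicate 2 and to -1.26 without liver replicate 2. Without liver replicate 1 it was 163, and without muscle replicate 1 it was 209.9. The sign over all 76 genes thus depended on the library left out. Without the 3 genes with the highest mean (Hist1h2bc, H3mm15 and H3mm13) the sums were 32.7 RPM in muscle and 17.7 RPM in brain and liver. The difference was 15.04 RPM (exact permutation p = 0.133), so that muscle was higher by a larger factor but again short of the threshold. Hist1h1c was a large part of this, with a mean of 16.7 RPM in muscle and 0.688 to 6.31 RPM in the other 4 libraries. A sum that also leaves out Hist1h1c was not tested.

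In exact two-sided binomial tests of reads against library totals, 11 of the 22 genes with a muscle read differed between the 2 muscle libraries at an adjusted p below 0.05. The same was true of 7 of 22 genes in brain and 7 of 17 in liver. Such a test compares 2 libraries and not conditions. In muscle the direction was not shared: Hist1h2bc, H3mm15, H3mm13 and H3mm7 were 5.08, 4.37, 3.45 and 3.78 times as high in replicate 2 as in replicate 1, whereas Hist1h1c was at 0.618 times and Hist1h2ac at 0.207 times. In liver the 7 genes that differed were all lower in replicate 2, with Hist1h2bc at 0.254 times and H3mm15 at 0.305 times. With the summed histone reads as totals, the counts became 10 in muscle, 7 in brain and 1 in liver. In muscle 6 of the 11 genes were in both counts, among them Hist1h1c, Hist1h2ac and Hist1h2bc, whereas 5 were lost (H3mm15, H3mm13, H3mm7, H3mm8 and Hist1h3d) and 4 were new (H3f3a, H3f3b, H3mm18 and Hist2h2be). In liver all 7 were lost and H3mm11 was new, and in brain 5 were in both.

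**Figure D3:**
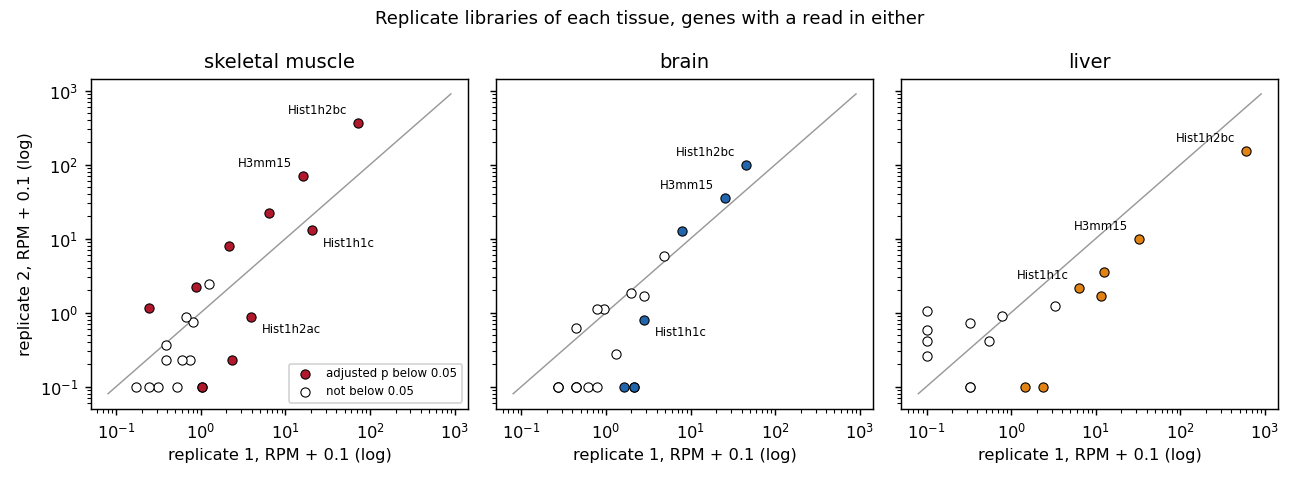
RPM + 0.1 of replicate 1 (horizontal log axis) and replicate 2 (vertical log axis) in muscle, brain and liver, 1 point per gene with a read in either library, with the line of equal values. Filled points had an adjusted p below 0.05 in the exact binomial test, 11 in muscle, 7 in brain and 7 in liver. Hist1h2bc and H3mm15 lie above the line in muscle, and Hist1h1c and Hist1h2ac below it.

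Hist1h2bc, an H2B gene known to give a polyadenylated mRNA, had more reads than any other listed gene in every one of the 7 libraries. Its RPM was 71.6 and 364 in muscle, 44.7 and 97.7 in brain, 596 and 151 in liver, with 291 in differentiated C2C12. The values of muscle overlapped those of both tissues. Its log2 difference from the mean of brain and liver was 0.20 (SE 1.41, limma adjusted p = 0.890), and it was below 0 in 5 alternative settings, among them shares of histone reads and a rescaling of libraries. As a share of all histone reads it was 54.9% and 75.1% in muscle, 44.0% and 61.7% in brain, 89.4% and 87.5% in liver, with 76.4% in C2C12. Both muscle shares were below both liver shares, and they overlapped those of brain.

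A further 3 H2B genes had muscle reads. Hist2h2bb (chr3:96073644-96082924) had 1.14 and 2.34 RPM in muscle, 0.853 and 1.03 in brain, and 0.676 and 0.791 in liver. Both muscle libraries were above the other 4, by a log2 difference of 0.90 from their mean (SE 0.96, limma adjusted p = 0.876). Hist2h2be had 0.711 and 0.650 RPM in muscle (10 and 5 reads), 0.512 and 0 in brain (3 and 0 reads), and no read in liver. Again the groups did not overlap, but a brain library without a read allows 0.516 RPM, and liver libraries allow 0.676 and 0.475 RPM. Hist1h2bf had 1 read, in muscle replicate 1. Hist3h2ba, an H2B gene of the polyadenylated list, showed the opposite distribution, with 7 and 1 reads in brain and none in muscle or liver.

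Of the 16 H2A genes, 2 had a muscle read. Hist1h2ac (chr13:23773336-23775817) had 3.77 and 0.780 RPM in muscle, from 53 and 6 reads. In brain it had 0.171 and 0 RPM, and in liver 0 and 0.317 RPM, from 1 to 2 reads where there were any. Both muscle libraries were above the others, although muscle replicate 2 (interval 0.286 to 1.70) and liver replicate 2 (0.0383 to 1.14) overlapped within counting error. An annotated 5S rRNA copy covers 108 bases of the Hist1h2ac window on the same strand. Hist3h2a had 0.284 and 0.130 RPM in muscle, 0.683 and 1.03 in brain, and 0.225 and 0 in liver, with both muscle libraries below brain, and 265 bases of its window overlap Trim17 on the same strand.

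Of the 11 H4 genes, 2 had a muscle read. Hist1h4h had 0.284 and 0.260 RPM in muscle, from 4 and 2 reads, and none in brain, liver or differentiated C2C12. These values lie below what 0 reads allow in each of those libraries, so a difference was not detectable at this depth. Hist2h4 had 3 and 0 reads in muscle, 2 and 3 in brain, and 0 and 1 in liver.

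In all, both muscle libraries lay above all 4 brain and liver libraries for 5 genes, Hist1h1c, Hist1h2ac, Hist2h2bb, Hist2h2be and Hist1h4h, which is 20.0% of the 25 genes with a read, and below all 4 for none (0.0%). Against brain alone, 5 genes were above (20.0%) and 4 below (16%), the latter being H3f3a, Hist2h4, Hist3h2a and Hist3h2ba. Against liver alone, 6 were above (24.0%), with Hist2h3c1 in addition, and 0 below (0.0%). By this rule a gene with 0 reads in any compared brain or liver library could not lie below. A gene with 0 reads in a muscle library could not lie above. Many of the 25 genes had such zeros, so the directions were not equally open and their counts cannot be compared. Muscle replicate 1 was the deepest of the 6 libraries and muscle replicate 2 the next, so 1 read there stands for a lower RPM. The genes with a read numbered 22 and 16 in muscle, 22 and 11 in brain, and 13 and 13 in liver. The part of depth in these counts was not tested. When all 25 genes were fitted, none had a limma adjusted p below 0.05, and 4 had an unadjusted p below 0.05 against the mean of brain and liver. These were Hist1h4h (limma adjusted p = 0.0662), Hist1h1c, Hist1h2ac and Hist2h2be (0.257 each).

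**Figure D4:**
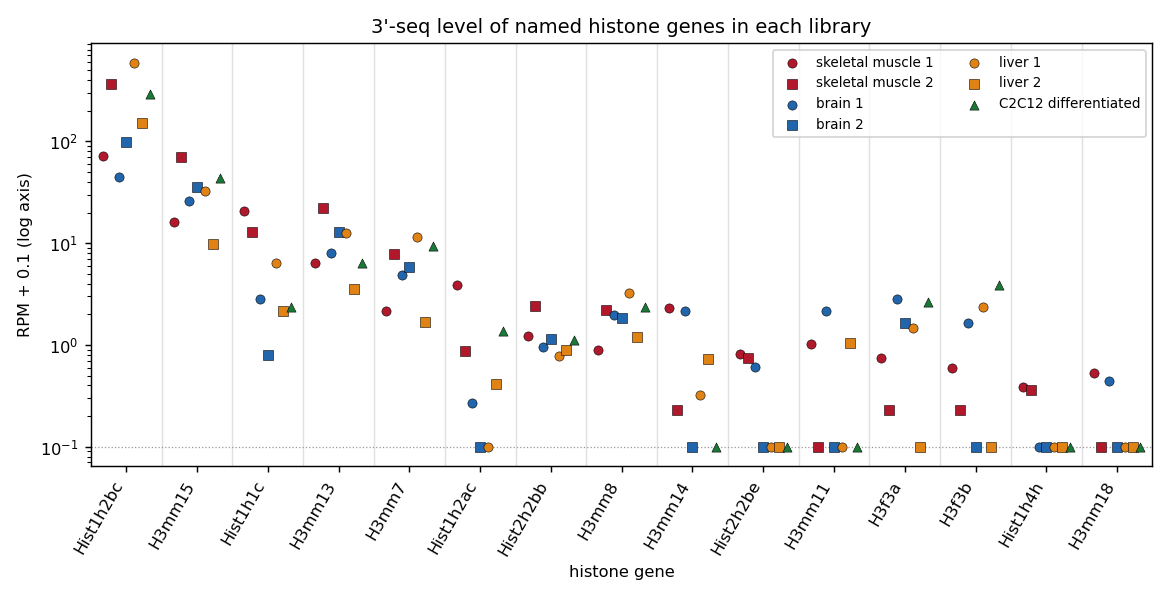
RPM + 0.1 on a log axis for 15 named genes, 1 point per library, with circles for replicate 1, squares for replicate 2 and a triangle for differentiated C2C12. The dotted line marks genes listed at 0. Both red points lie above all blue and orange ones for Hist1h1c, Hist1h2ac, Hist2h2bb, Hist2h2be and Hist1h4h.

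The H3 family had 28 genes, 12 of them with a muscle read, and 28.9 of its 30.7 RPM in muscle replicate 1 and 102 of 104 RPM in replicate 2 came from the 13 H3mm genes. The replacement variant genes were low in muscle. H3f3a had 0.640 and 0.130 RPM in muscle (9 and 1 reads), 2.73 and 1.55 in brain, 1.35 and 0 in liver, with 2.53 in differentiated C2C12. Both muscle libraries were below both brain libraries. H3f3b had 0.498 and 0.130 RPM in muscle, 1.54 and 0 in brain, 2.25 and 0 in liver, with 3.80 in C2C12, and the tissues overlapped. Only reads with a single place in the genome were counted, and 78.2% of the 31-base words in the H3f3a 3′-UTR and 67.2% of those in the H3f3b 3′-UTR occur once in the genome, so these values are uncertain relative to genes with unshared ends. In the annotated 3′-UTR of H3mm13 (512 bases) 14.3% of such words occur once and in that of H3mm18 (511 bases) 35.3%, so their values carry this limit too. Reads of these genes were counted in 3000 bases after the coding sequence, so these shares describe only a part of the counted window. The other H3mm genes with muscle reads had no 3′-UTR in the annotation used here, and no share was computed over the 3000-base windows.

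H3mm15 (chr16:91114434-91114844) was second to Hist1h2bc by reads in muscle replicate 2 and in differentiated C2C12, and came after Hist1h2bc and Hist1h1c in muscle replicate 1. It had 16.002 and 70.0 RPM in muscle, 25.6 and 35.4 in brain, 32.2 and 9.81 in liver, with 43.5 in C2C12. Muscle held both the second lowest and the highest of the 6 tissue values. H3mm13 (chr13:101715851-101716875) had 6.33 and 21.8 RPM in muscle, 7.85 and 12.7 in brain, and 12.4 and 3.48 in liver. H3mm7 had 2.06 and 7.80 RPM in muscle, 4.78 and 5.68 in brain, and 11.5 and 1.58 in liver. H3mm8 had 0.782 and 2.08 RPM in muscle, 1.88 and 1.72 in brain, and 3.15 and 1.11 in liver. For all 4 the tissues overlapped, and the log2 differences from the mean of brain and liver were 0.53 (SE 1.18), 0.53 (SE 1.08), -0.23 (SE 1.04) and -0.48 (SE 0.98), with limma adjusted p from 0.876 to 0.890. The sign of H3mm15 and H3mm13 was negative without muscle replicate 2 and with shares that leave out Hist1h2bc, that of H3mm7 positive without liver replicate 1 or muscle replicate 1, and that of H3mm8 positive without muscle replicate 1.

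As shares of the histone reads, H3mm15 and H3mm13 were closely matched between the muscle replicates and lay between brain and liver. H3mm15 took 12.3% and 14.4% in muscle, 25.2% and 22.4% in brain, and 4.83% and 5.67% in liver. H3mm13 took 4.86% and 4.51%, 7.72% and 8.04%, and 1.86% and 2.01%. Other H3mm genes did not share this order: H3mm7 took 1.58% and 1.61% in muscle, inside the liver values of 1.72% and 0.914%, and H3mm8 took 0.6001% and 0.429%, which overlapped liver at 0.473% and 0.640%. H3mm14 took 1.69% and 0.0268% in the muscle replicates. In the limma fit on shares, 3 of 8 genes (37.5%) were called against brain, all lower in muscle: H3mm15 by -0.83 (adjusted p = 0.0145), H3mm13 by -0.75 (0.0145) and H3mm7 by -1.34 (0.0406) on the log2 scale. Against liver, 2 of 8 (25.0%) were called, both higher in muscle: H3mm15 by 1.34 (limma adjusted p = 0.00198) and H3mm13 by 1.26 (0.00179). Against the mean of both tissues, which lie on opposite sides, 0 were called (0.0%).

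These shares moved with Hist1h2bc, the largest single part of the denominator in every library. Hist1h2bc had 4.48 reads for each read of H3mm15 in muscle replicate 1 (interval 3.87 to 5.19) and 5.20 in replicate 2 (4.74 to 5.72). In brain the ratio was 1.75 (1.42 to 2.15) and 2.76 (2.35 to 3.25), and in liver 18.5 (15.6 to 22.0) and 15.4 (11.9 to 20.3). No interval of one tissue overlapped an interval of another, in a ratio chosen after its values were seen. With Hist1h2bc left out of the sum, H3mm15 took 27.2% and 57.9% in muscle, 44.9% and 58.5% in brain, and 45.4% and 45.3% in liver. The tissues then overlapped, and limma called 0 of 7 genes in each comparison (2, 1 and 1 genes had an unadjusted p below 0.05 against the mean, brain and liver). The order of muscle between brain and liver was thus seen in shares that include Hist1h2bc and not in shares without it. The sum without Hist1h2bc has variable parts of its own, such as Hist1h1c at 35.1% and 10.5% in muscle. What sets the order was not tested. Over all histone reads, with Hist1h2bc included, Hist1h1c took 15.8% and 2.63% in muscle, and 2.68% and 0.435% in brain. In liver it took 0.946% and 1.19%. Muscle replicate 2 was then just below brain replicate 1, unlike in RPM. With Hist1h2bc left out, Hist1h1c took 35.1% and 10.5% in muscle, 4.79% and 1.14% in brain, and 8.89% and 9.49% in liver. Both muscle libraries were then above every brain and liver library.

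**Figure D5:**
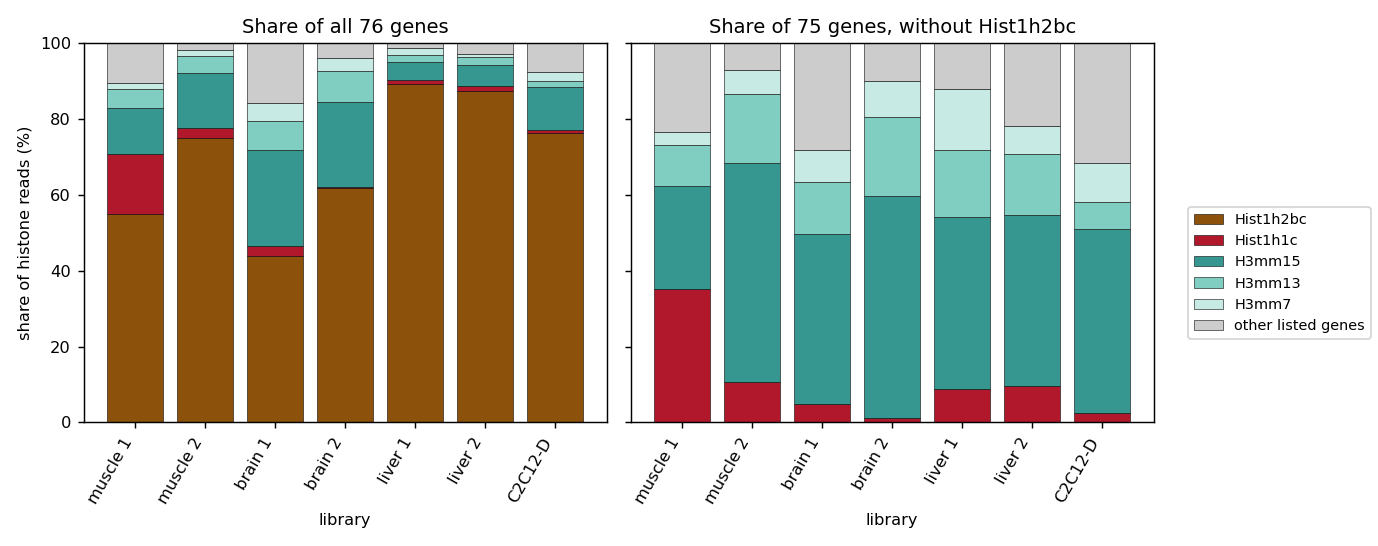
Stacked bars of the share of histone reads in percent per library, over all 76 genes on the left and over the 75 genes without Hist1h2bc on the right. On the left Hist1h2bc takes 44.0% to 89.4% of the tissue bars and the H3mm15 share of muscle, 12.3% and 14.4%, lies between brain and liver. On the right the H3mm15 share is 27.2% and 57.9% in muscle and overlaps the other tissues.

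The remaining H3mm genes were low. H3mm14 had 31 and 1 reads in muscle, 12 and 0 in brain, and 1 and 4 in liver. H3mm11 had 13 and 0 reads in muscle, 12 and 0 in brain, and 0 and 6 in liver, and 202 bases of its 3000-base window overlap Ndufaf1 on the same strand. H3mm18 had 6 and 0 reads in muscle and H3mm6 had 2 and 0, with 2 and 0 in brain for each and none in liver. All 4 of these genes were thus seen mainly in replicate 1 of both muscle and brain. Of the 6 genes with a read in only 1 muscle library all 6 had it in replicate 1, the deeper one. Against library totals, H3mm14 and H3mm11 still differed between the muscle libraries (exact binomial adjusted p = 7.93e-05 and 0.0136), whereas H3mm18 and H3mm6 did not (0.163 and 0.712). The brain libraries had 5859126 and 5814156 unique reads. What sets the replicates apart was not tested. H3mm9, H3mm10, H3mm16, H3mm17 and H3t had no read in the 6 libraries, and H3mm12 had 1, in brain. Of the 12 replication-dependent H3 genes, 2 had muscle reads: Hist2h3c1 with 0.569 and 0.780 RPM against 0.683 and 0 in brain and 0.451 and 0.317 in liver, and Hist1h3d with 2 and 8 reads. Hist1h1d, the other linker histone gene seen in muscle, had 13 and 0 reads there and 1 and 0 in brain.

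The 5 listed genes known for a polyadenylated form (Hist1h1c, Hist1h2bc, Hist2h2be, Hist3h2a and Hist3h2ba) summed to 71.5% and 77.9% of histone reads in muscle, 49.0% and 62.9% in brain, 90.3% and 88.7% in liver, with 77.2% in differentiated C2C12. Most of each sum was Hist1h2bc, at 54.9% and 75.1% in muscle, 44.0% and 61.7% in brain, and 89.4% and 87.5% in liver. Of the 5, 4 had a muscle read and 2 were above all brain and liver libraries, against 5 of all 25 genes with a read (20.0%). Only Hist1h1c and Hist1h2bc were among the 8 genes of the main limma test, and neither passed. The 58 replication-dependent genes as a whole took 77.0% and 78.9% in muscle, 51.5% and 63.9% in brain, and 90.5% and 89.9% in liver, and 44 of them had no read in these libraries.

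Differentiated C2C12 cells were set beside muscle without a test, as there was 1 library. Of the 14 genes with a read in them, 12 also had a muscle read, and 10 genes with a muscle read had none in C2C12. Hist1h2bc, H3mm15 and Hist1h2ac lay between the 2 muscle values. Hist1h1c had 2.28 RPM in C2C12 (9 reads, interval 1.04 to 4.32), and muscle was 9.06 times (4.71 to 20.0) and 5.60 times (2.83 to 12.6) as high. Hist1h2be, an H2B gene, had 16.4 RPM in C2C12 (65 reads, interval 12.7 to 21.0) and no read in any of the 6 tissue libraries. In the muscle libraries, 0 reads allow 0.213 and 0.390 RPM. In all, 7 of the 14 genes were above both muscle values in C2C12, among them H3f3a, H3f3b, H3mm7, H3mm8 and Hist3h2a. Below both muscle values were 4 of the 14, Hist1h1c, Hist2h2bb, Hist2h3c1 and H3mm13. Several of these orders lie within counting error. H3mm13 was at 6.33 RPM both in C2C12 and in muscle replicate 1. Hist2h3c1, Hist2h3c2, Hist3h2a and Hist2h2bb rested on 1, 1, 2 and 4 C2C12 reads. H3mm8 had 2.28 RPM in C2C12 against 2.08 in muscle replicate 2. Cultured cells and tissue differ here in source, depth and number of libraries, and these cannot be told apart from differences of muscle cells.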

How the data were processed

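The 3′-seq reads were mapped by the authors to mm9 with STAR, reads with more than 1 place were discarded, and reads in the 3′-UTR, or in 3000 bases after the coding sequence of the predicted H3 genes, were deposited as RPM of uniquely mapped reads. The deposited FPKM values of mRNA-Seq (Cufflinks 2.0.1) served only for myotube markers of untagged C2C12, and the other 18 FPKM columns were not used. Reads were recovered as whole multiples of the RPM step (within 0.01 reads). No count model was run on these reads, and limma 3.58.1 in R 4.3.3 (trend) was run on log2(RPM + 0.1) for genes with a mean of at least 1 RPM over 6 libraries, with Benjamini-Hochberg adjustment and a threshold of 0.05, after a check on simulated data. The simulated spread was independent for each value and narrower than that between the muscle replicates of Hist1h2bc and H3mm15. That check therefore does not show how the test behaves on these libraries. Summed RPM was compared by exact permutation, and replicates by exact binomial tests. Loci and 3′-UTRs came from GENCODE M1 on mm9, and 75 of 76 genes had a locus (H3mm8 had none). The genes named were those called, the 10 highest in muscle, up to 5 in each direction whose muscle values lay outside the range of brain and liver, H3f3a, H3f3b, H3t and the H3mm genes, and Hist1h2be, Hist1h2bf, Hist1h1d, Hist1h3d, Hist2h3c1, Hist2h4, Hist3h2a and Hist3h2ba were added after their values were seen. The members, lists and tests were chosen with earlier results of these data known. Tables were handled with pandas 2.3.3 in Python 3.11.15, intervals and exact tests made with scipy 1.17.1 and numpy 2.4.6, and plots with matplotlib 3.10.9.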

Additional observations from a re-analysis of the deposited data

How the results depend on the processing

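The number of genes called was 0 against the mean of brain and liver, brain and liver, also with pseudocounts of 0.01, 0.5 and 1 RPM, with every gene that had a read, with a mean of at least 5 RPM, without the trend, and without each library in turn (0 to 0 called). With testis in the fit it was 1 against the mean (Hist1h1c, log2 difference 2.79), 1 against brain (Hist1h1c, 3.45) and 0 against liver. With shares of histone RPM it was 3 against brain, 2 against liver and 0 against the mean. Libraries rescaled by the median ratio (factors of 0.477 to 2.38) and shares without Hist1h2bc, both chosen after seeing the data, gave 0 in each. edgeR, DESeq2 and TMM scaling were planned and not run, although whole reads could be recovered: the tables list too few low values per library for the check of recovered reads on which a count model was made to depend.

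The replicate block gave 0 genes called in each comparison. Replicate numbers name the tables, and deviations of the same number correlated over 8 genes with r of 0.843 between muscle and brain, 0.361 between muscle and liver and 0.164 between brain and liver. All 3 were positive, but with 2 numbers and no label of a shared animal or day they were not taken to pair the libraries. For summed histone RPM, permutation within tables gave p = 0.889 (exact, smallest possible 0.111), and leaving out 1 library gave differences from -144.6 to 209.9 RPM (exact permutation p from 0.3 to 1).

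Hist1h1c was higher against the mean in all 17 settings (2.00 to 3.25). The sign turned for Hist1h2bc with shares (-0.080) and rescaling (-0.24), and leaving out 1 library gave -0.98 to 1.37. It turned for H3mm13 and H3mm15 with shares without Hist1h2bc (-0.27 and -0.28), and leaving out 1 library gave -0.35 to 1.42 and -0.53 to 1.59. For H3mm7 and H3mm8 it turned only on leaving out 1 library (-1.16 to 0.71 and -1.14 to 0.17). The cause was not tested. A fit with 1 library left in a tissue assumes that it varies like the others. Depth limits genes below about 0.7 RPM in brain and liver.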

Other observations

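H3mm13 and H3mm15, both close copies of H3f3a, were counted in a similar ratio in every tissue library. H3mm13 had 0.396 and 0.312 reads for each read of H3mm15 in muscle, 0.307 and 0.359 in brain, and 0.385 and 0.355 in liver, with overlapping exact binomial 95% intervals (lowest bound 0.208, highest 0.585). In differentiated C2C12 the ratio was 0.145 (0.0915 to 0.222), which overlapped those of brain replicate 1 and liver replicate 2 only. These ratios were chosen after their values were seen and share their libraries, and no test was made.

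Outside the compared tissues, Hist1h1c had 0.833 and 0.136 RPM in testis (3 and 1 reads) and no read in growing C2C12, where 0 reads allow 5.56 RPM. Hist1h2ac had 0 and 2 reads in testis.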
